A study of Homo sapiens with 6 samples.

Results

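The 53 genes described here encode proteins that the liver secretes into plasma: carriers and transport proteins, protease inhibitors, fibrinogen and clotting factors, anticoagulant and fibrinolytic proteins, complement components and acute phase proteins. They were given as a list of symbols, and all 53 were found among the 34690 gene symbols of the deposited tables. RNA of SNU761, an established human hepatocellular carcinoma line, was hybridised to 6 Illumina BeadChip arrays. For the 3 control arrays the cells had DMSO, the vehicle, for 24 h. For the 3 sorafenib arrays they had sorafenib, an inhibitor of RAF kinases and of the VEGF and PDGF receptors, for as long. The labels write the dose as 3 mM, a unit that is uncertain because it is far above the doses usual in culture. Each group holds arrays numbered 1, 2 and 3, with no statement that these were separate cultures, so the tests measure only the spread between arrays as deposited.

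Hepatocytes make most proteins of blood plasma. Carriers such as albumin move fatty acids, hormones and metals. Clotting factors act in a proteolytic cascade that ends in the conversion of fibrinogen to fibrin, and plasma serpins and the protein C pathway hold it in check. Complement is a second cascade, which marks and lyses microbes. In inflammation, interleukin-6 and interleukin-1 act on hepatocytes through STAT3, C/EBP and NF-kB and raise the positive acute phase proteins (CRP, serum amyloid A, SERPINA3, complement C3 and factor B), while the negative acute phase proteins (albumin, transthyretin, transferrin, AHSG) go down.

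A level below is a normalized signal on the log2 scale, on which 1 unit is a 2-fold difference and the lowest detected signal among symbols that behaved as single probes lay at 5.79 to 6.04, depending on the array. Values follow the order of replicate numbers 1, 2 and 3. A signal counts as detected where its deposited detection p is under 0.05. Between 37 and 41 of the 53 genes were detected on each array, and between 13195 and 15227 of all symbols. Signals of different genes come from different probes and are not set against each other. Arrays numbered 3 stood apart from the other 4. Over the 42 of the 53 genes that could be tested, Pearson's r between arrays numbered 1 and 2 was 0.928 to 0.948, and that between either of these and arrays numbered 3 was 0.188 to 0.351. Over all 14641 symbols tested the latter range was 0.793 to 0.833; these correlations run across genes, which are not independent replicates.

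The plasma protein genes stood at different levels by replicate number. On both arrays numbered 3, 19 of the 53 lay at least 2-fold below each of the other 4 arrays, on all of which they were detected. Over all symbols 3.75% did so, against 35.8% of the plasma protein genes. A further 11 were detected on both arrays numbered 3 and lay at least 2-fold above each of the other 4 (20.8%, against 3.69% of all symbols). Among symbols detected on all 4 arrays numbered 1 and 2, 11.5% were in the lower class, against 19 of 37 plasma protein genes (51.4%). Among symbols detected on both arrays numbered 3, 10.5% were in the higher class, against 11 of 37 (29.7%). On neither array numbered 3, but on all 4 others, 7 genes were detected (13.2%, against 2.57% of all symbols), and the reverse held for 5 (9.43%, against 1.58%). C3 and C1S are among these 5, though their signals on arrays numbered 1 and 2 lay well above background. By the rule of the classes, all 30 genes differed the same way in the control and in the sorafenib arrays. This agreement was fixed by the selection and is not a result. Another 18 genes were in neither class, and 5 (PLG, F13B, C9, ITIH3 and ITIH4) were detected on no array. When all symbols served to estimate the background, in place of those that behaved as single probes, the classes held 9 and 6 genes, and 0 of the 30 turned direction. The lower class then lost AHSG, AMBP, SERPINC1, SERPIND1, F2, F5, F10, F12, KNG1, C4BPB and C8A and gained FGA. The higher class lost CP, C1R, SAA1, SAA4 and CRP. Classes and folds given below are those of the main background estimate. The classes were read from these values, so they are a description with no test. In such bulk RNA, fewer cells of a type and less RNA per cell cannot be told apart.

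**Figure D1:**
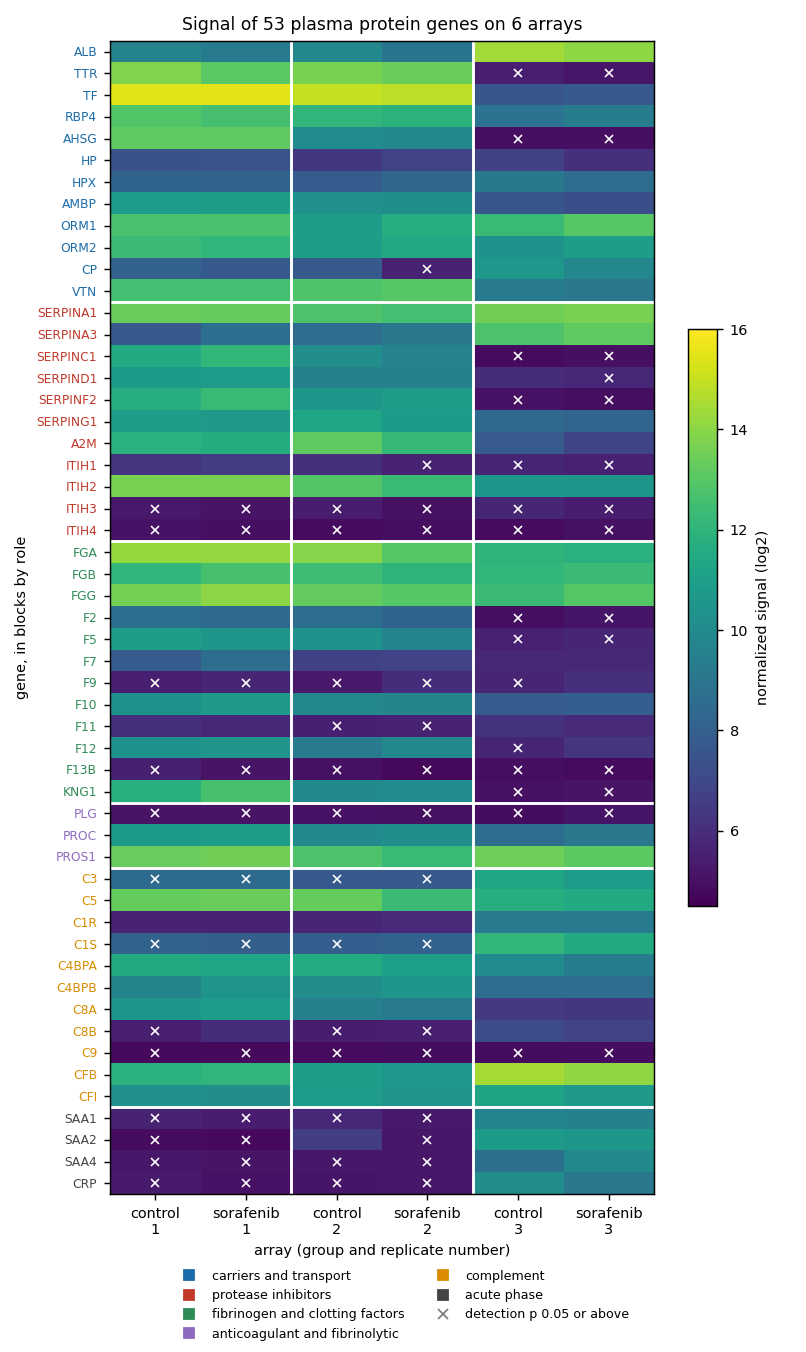
Normalized signal (log2, colour) of the 53 plasma protein genes (rows, in blocks by role) on the 6 arrays (columns, paired by replicate number). A white cross marks a signal with a detection p of 0.05 or above; the 4 acute phase genes have crosses on all arrays numbered 1 and 2, except SAA2 on control array 2, and none on arrays numbered 3.

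The threshold cut through a continuum at its lower end. The gap between the lowest of arrays 1 and 2 and the higher of arrays 3 was 1.07 for C4BPB, just inside the lower class, and 0.98 for FGA, just outside. Among higher genes the smallest gap was 1.69, for CP, while C8B stood outside at 0.81.

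Promoter sequence of some genes from the lower and the higher class is shown. The motifs searched are those of STAT, C/EBP and NF-kB, named above, and of HNF1 and the TATA box. Binding was not measured. Of the 53 genes, 40 had an entry in the RefSeq promoter table (GRCh38.p14), and the 250 bases before each annotated start were searched on both strands for 5 short motifs. Each is read 5′ to 3′ on the gene's strand. Capitals mark every match, and no base was shared by matches of different motifs. ALB and CRP belonged to the higher class together with CFB, and AHSG and its neighbour KNG1 to the lower class. The windows are chr4:73404037-73404286 (plus strand) for ALB, chr1:159714590-159714839 (minus strand) for CRP, chr6:31945845-31946094 (plus strand) for CFB, chr3:186612810-186613059 (plus strand) for AHSG and chr3:186717109-186717358 (plus strand) for KNG1.
ALB: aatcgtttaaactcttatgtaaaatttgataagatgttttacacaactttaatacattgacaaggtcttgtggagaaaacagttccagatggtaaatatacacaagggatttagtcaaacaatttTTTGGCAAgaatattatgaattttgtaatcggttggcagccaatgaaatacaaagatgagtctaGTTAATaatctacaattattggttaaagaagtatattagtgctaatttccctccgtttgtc
CRP: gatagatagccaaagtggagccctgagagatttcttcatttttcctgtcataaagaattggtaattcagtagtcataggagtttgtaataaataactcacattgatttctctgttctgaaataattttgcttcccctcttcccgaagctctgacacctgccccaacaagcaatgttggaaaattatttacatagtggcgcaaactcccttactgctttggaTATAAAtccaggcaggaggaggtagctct
CFB: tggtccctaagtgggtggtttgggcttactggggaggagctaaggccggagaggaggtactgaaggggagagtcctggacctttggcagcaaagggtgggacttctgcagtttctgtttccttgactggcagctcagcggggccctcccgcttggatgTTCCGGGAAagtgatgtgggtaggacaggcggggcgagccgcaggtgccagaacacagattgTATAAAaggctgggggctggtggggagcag
AHSG: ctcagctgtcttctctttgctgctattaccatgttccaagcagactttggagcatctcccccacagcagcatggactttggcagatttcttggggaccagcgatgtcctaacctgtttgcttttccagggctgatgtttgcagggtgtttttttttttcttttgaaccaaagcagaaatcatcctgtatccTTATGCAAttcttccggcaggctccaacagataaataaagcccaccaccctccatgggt
KNG1: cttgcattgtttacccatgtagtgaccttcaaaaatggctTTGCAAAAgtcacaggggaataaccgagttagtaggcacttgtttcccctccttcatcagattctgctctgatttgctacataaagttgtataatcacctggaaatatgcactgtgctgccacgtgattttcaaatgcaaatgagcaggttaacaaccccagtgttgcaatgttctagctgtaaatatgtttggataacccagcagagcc

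The ALB window held an HNF1 half-site (GTTAAT) and a C/EBP match (TTGCNNAA), and those of AHSG and KNG1 a C/EBP match each. The CFB window held a STAT match (TTCNNNGAA) and a TATA box (TATAAA), and the CRP window a TATA box. Over all 40 windows, 8 (20%) held the HNF1 half-site, against 6.22% of the 27305 promoters in the table. The C/EBP match was in 9 (22.5%, against 9.13%), and the STAT match was in 8 (20%, against 6.78%). The NF-kB match (GGG and TTCC with 3 bases between) was in 2 (5%, against 5.61%) and the TATA box in 4 (10%, against 11.1%). By class, the C/EBP match was in 3 of 13 windows of the lower class, 3 of 6 of the higher class and 3 of 16 in neither. In the same order, the HNF1 half-site was in 1, 2 and 4 windows and the TATA box in 0, 2 and 1. The STAT match was in 3, 1 and 3 and the NF-kB match in 1, 0 and 1. These counts are small and were not tested. A match is a string of letters and not a shown binding site.

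Among the 12 carriers and transport proteins, 6 were in the lower class and 2 in the higher. Transthyretin (TTR), which carries thyroxine and retinol-binding protein, read 13.82, 13.68 and 5.45 in control and 13.05, 13.39 and 5.21 with sorafenib. It was high on all 4 arrays numbered 1 and 2 and not detected on either numbered 3, a difference of at least 182-fold. A bound of this kind sets the mean of the bright arrays against that lowest detected signal on each dim array, or the gene's own signal where that is higher. Transferrin (TF), the iron carrier of plasma, read 15.45, 15.01 and 7.59 in control and 15.55, 14.84 and 7.75 with sorafenib, so it was still detected on arrays numbered 3 but 186-fold lower. AHSG (fetuin-A), which keeps calcium phosphate from precipitating, read 13.20, 10.06 and 4.96 in control and 13.17, 9.90 and 4.96 with sorafenib. It stood at a different level for each number and was at least 48.7-fold lower on arrays numbered 3. The retinol carrier RBP4 read 12.87, 12.07 and 8.88 in control and 12.61, 11.88 and 9.39 with sorafenib. Vitronectin (VTN), an adhesive protein that also binds complement, read 12.55, 12.82 and 9.18 in control and 12.58, 13.0002 and 9.06 with sorafenib. AMBP, the precursor of alpha-1-microglobulin and bikunin, read 10.88, 10.31 and 7.59 in control and 10.91, 10.22 and 7.25 with sorafenib. These 3 were 9.31-fold, 12.3-fold and 8.92-fold lower on arrays numbered 3, with no overlap.

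Albumin went the other way. ALB, the main protein of plasma, read 9.63, 9.89 and 14.43 in control and 9.27, 8.98 and 14.05 with sorafenib, which is 27.8-fold higher on arrays numbered 3 than on the other 4. Ceruloplasmin (CP), a copper-carrying ferroxidase, read 8.12, 7.77 and 10.62 in control and 7.75, 5.65 and 9.80 with sorafenib. It was 7.42-fold higher on arrays numbered 3, and sorafenib array 2 was the only one on which it was not detected. The fold includes that array, so it is not a measured size. Albumin and transthyretin, both negative acute phase proteins, thus stood on opposite sides. The other 4 carriers were in neither class. The acid glycoprotein ORM1 read 12.69, 10.88 and 12.26 in control and 12.69, 11.66 and 13.02 with sorafenib. Its near-identical neighbour ORM2 read 12.36, 10.90 and 10.36 in control and 12.07, 11.44 and 10.97 with sorafenib, and their probes may not tell them apart. Hemopexin (HPX), which binds free heme, read 8.21, 7.84 and 9.14 in control and 8.18, 8.28 and 8.65 with sorafenib. Haptoglobin (HP), which binds free hemoglobin, read 7.36, 6.34 and 6.74 in control and 7.50, 6.83 and 6.09 with sorafenib. In these 4 the difference between arrays numbered 3 and the others was 1.51-fold to 2.04-fold in size.

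**Figure D2:**
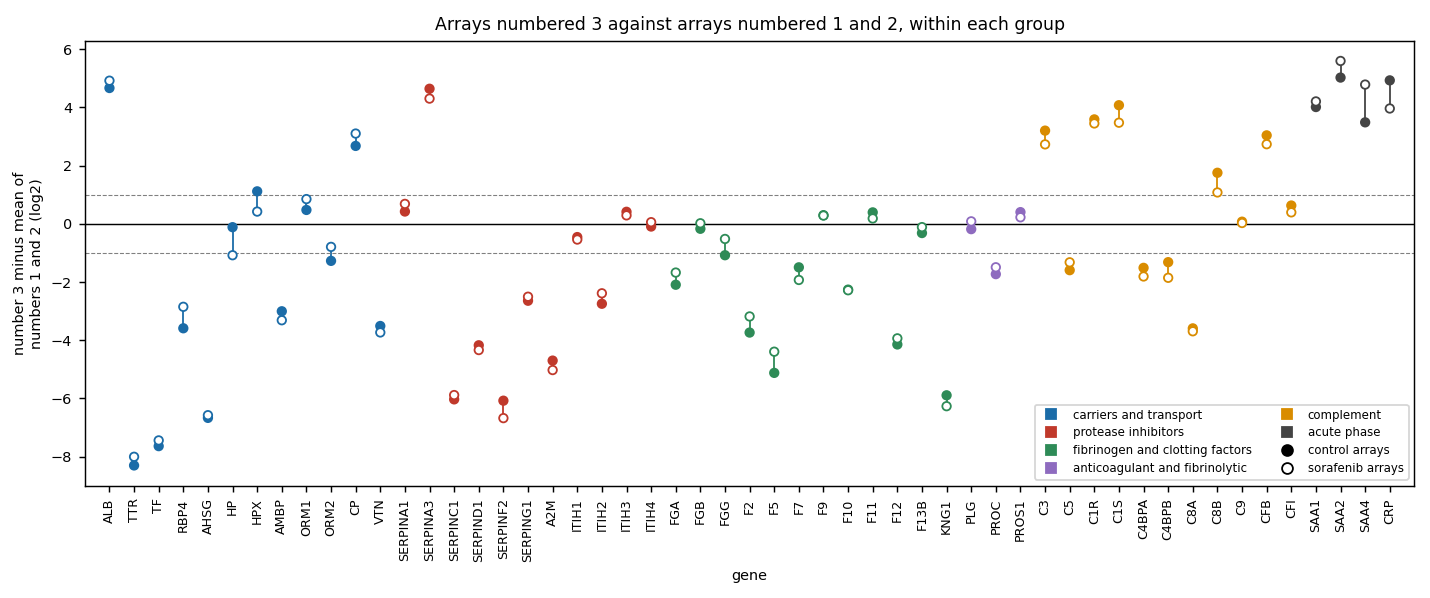
Difference in log2 signal between the array numbered 3 and the mean of arrays numbered 1 and 2, for the control arrays (filled) and the sorafenib arrays (open), by gene and coloured by role. Dashed lines mark 2-fold. By the rule of the classes, filled and open points lie on the same side of 0 for all 30 genes of both classes. TTR and TF are among those far below and ALB and SAA2 among those far above.

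Of the 11 protease inhibitors 6 were in the lower class. Antithrombin (SERPINC1), the main inhibitor of thrombin, read 11.53, 10.19 and 4.83 in control and 12.11, 9.59 and 4.97 with sorafenib. Alpha-2-antiplasmin (SERPINF2), which inhibits plasmin, read 11.65, 10.59 and 5.04 in control and 12.28, 10.93 and 4.93 with sorafenib. Neither was detected on arrays numbered 3, and the differences were at least 29.4-fold and at least 41.8-fold. Heparin cofactor II (SERPIND1), another thrombin inhibitor, read 10.76, 9.52 and 5.97 in control and 10.85, 9.51 and 5.84 with sorafenib and was lower on arrays numbered 3, where it was detected on the control array only. The broad protease trap A2M read 11.84, 13.14 and 7.79 in control and 11.64, 12.17 and 6.88 with sorafenib, 29.0-fold lower on arrays numbered 3 and highest on control array 2. C1 inhibitor (SERPING1), which restrains the first complement proteases, read 10.93, 11.24 and 8.44 in control and 10.74, 10.78 and 8.26 with sorafenib. ITIH2, a heavy chain that binds hyaluronan, read 13.67, 12.93 and 10.55 in control and 13.63, 12.30 and 10.58 with sorafenib. Both were detected on every array and lay 5.95-fold and 5.92-fold lower on arrays numbered 3.

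SERPINA3 and SERPINA1 are neighbouring genes, yet they did not behave alike. SERPINA3 (alpha-1-antichymotrypsin), a positive acute phase protein, read 7.71, 8.62 and 12.81 in control and 8.70, 9.08 and 13.20 with sorafenib and was 22.2-fold higher on arrays numbered 3. SERPINA1 (alpha-1-antitrypsin), the main inhibitor of neutrophil elastase, read 13.37, 12.81 and 13.51 in control and 13.30, 12.57 and 13.63 with sorafenib and was bright on all 6 arrays, with a difference of 1.47-fold. ITIH1 was detected on 3 arrays only, at 6.49 or less.

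Fibrinogen was detected on all arrays, while several factors that act before it in the clotting cascade were not. The 3 chains lie next to each other in the genome. The beta chain FGB read 12.08, 12.44 and 12.09 in control and 12.65, 11.96 and 12.33 with sorafenib, and its arrays overlapped between numbers. The gamma chain FGG read 13.61, 13.26 and 12.36 in control and 14.00, 12.97 and 12.97 with sorafenib. The alpha chain FGA read 14.19, 13.92 and 11.96 in control and 14.12, 12.95 and 11.86 with sorafenib and was 3.69-fold lower on arrays numbered 3, with no overlap. Of the 12 genes in the group 5 were in the lower class and 0 in the higher.

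Prothrombin (F2) read 8.70, 8.64 and 4.94 in control and 8.50, 8.20 and 5.17 with sorafenib. Factor V (F5), the cofactor that speeds its cleavage, read 10.95, 10.38 and 5.55 in control and 10.58, 9.64 and 5.72 with sorafenib. Kininogen (KNG1), the source of bradykinin, read 11.82, 9.97 and 5.00 in control and 12.64, 10.08 and 5.09 with sorafenib. None of these 3 was detected on arrays numbered 3, and the differences were at least 5.80-fold, at least 21.3-fold and at least 35.5-fold. Factor XII (F12), the contact protease, read 10.34, 9.28 and 5.67 in control and 10.52, 9.80 and 6.23 with sorafenib, lower on arrays numbered 3 and detected on sorafenib array 3 but not on control array 3. Factor X (F10), which activates prothrombin, read 10.39, 9.80 and 7.84 in control and 10.71, 9.73 and 7.94 with sorafenib, detected throughout and 4.82-fold lower. Factor VII (F7), the partner of tissue factor, read 7.85, 6.76 and 5.81 in control and 8.65, 6.82 and 5.81 with sorafenib, and it was highest on arrays numbered 1. Factor XI (F11) read 6.05, 5.52 and 6.18 in control and 5.83, 5.64 and 5.92 with sorafenib. Factor IX (F9) read 5.46, 5.29 and 5.67 in control and 5.68, 5.94 and 6.10 with sorafenib. These 2 factors of the intrinsic pathway were close to background on every array. Of the proteins that limit clotting, protein C (PROC) read 10.78, 9.98 and 8.66 in control and 10.92, 10.24 and 9.09 with sorafenib. Its cofactor protein S (PROS1) read 13.32, 12.81 and 13.47 in control and 13.51, 12.28 and 13.12 with sorafenib. PROC was 3.05-fold lower on arrays numbered 3, and PROS1 was bright on all 6 arrays.

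Complement held members of both classes, 2 lower and 4 higher of 11. Factor B (CFB), the protease of the alternative pathway, read 11.82, 10.96 and 14.43 in control and 12.06, 10.63 and 14.09 with sorafenib, 7.41-fold higher on arrays numbered 3. C1S and C1R, the neighbouring genes for the proteases of the first component, were both in the higher class. C1R read 5.61, 5.75 and 9.27 in control and 5.60, 5.91 and 9.21 with sorafenib. C1S read 8.15, 7.93 and 12.12 in control and 7.98, 8.13 and 11.53 with sorafenib. C3, on which all complement pathways meet, read 8.50, 7.69 and 11.30 in control and 8.51, 7.74 and 10.86 with sorafenib. These 3 were 11.5-fold, at least 13.7-fold and at least 7.83-fold higher on arrays numbered 3. C1R was called detected on all 6 arrays, with p-values that did not behave as those of a single probe. Its signals on arrays numbered 1 and 2 lay below the lowest detected single-probe signal of each array. Its 11.5-fold is thus a ratio over background and not a measured size. C3 and C1S were not called detected on arrays numbered 1 and 2 in spite of signals well above background. Their detection p-values, like those of 10 of the 53 genes in all, did not behave as those of a single probe.

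The 2 complement genes of the lower class were C8A and C4BPB. C8A, the alpha subunit of the eighth component, read 10.56, 9.51 and 6.44 in control and 10.81, 9.29 and 6.36 with sorafenib and was 12.5-fold lower on arrays numbered 3. Its neighbour C8B, the beta subunit, read 5.48, 5.39 and 7.19 in control and 6.01, 5.47 and 6.82 with sorafenib. It was detected on both arrays numbered 3 and on 1 of the other 4. C5, which starts the lytic complex, read 13.26, 13.29 and 11.68 in control and 13.36, 12.36 and 11.54 with sorafenib, 2.74-fold lower. C4b-binding protein, an inhibitor of the classical pathway, is encoded by 2 neighbouring genes. C4BPA read 11.50, 11.59 and 10.03 in control and 11.26, 10.97 and 9.31 with sorafenib. C4BPB read 9.72, 10.17 and 8.63 in control and 10.44, 10.56 and 8.64 with sorafenib. They were 3.16-fold and 3.00-fold lower on arrays numbered 3. Factor I (CFI), which cleaves C3b, read 10.28, 10.86 and 11.20 in control and 10.17, 10.49 and 10.73 with sorafenib, with arrays numbered 2 and 3 close together.

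All 4 acute phase genes were in the higher class, but CRP, SAA1 and SAA4 left it when all symbols served to estimate the background. C-reactive protein (CRP) read 5.32, 5.15 and 10.17 in control and 5.07, 5.18 and 9.09 with sorafenib, detected only on arrays numbered 3 and at least 13.5-fold higher there. Serum amyloid A is encoded by neighbouring genes. SAA1 read 5.58, 5.79 and 9.70 in control and 5.40, 5.33 and 9.57 with sorafenib. SAA4, the constitutive form, read 5.26, 5.26 and 8.75 in control and 5.13, 5.18 and 9.94 with sorafenib. Both were detected only on arrays numbered 3. SAA2 read 4.88, 6.58 and 10.76 in control and 4.80, 5.21 and 10.60 with sorafenib, and control array 2 was the one other array on which it was detected. The differences were at least 13.5-fold for SAA1 and at least 11.1-fold for SAA4, but SAA1 and SAA2 are near-identical, so their probes may read each other.

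Arrays numbered 1 and 2 also differed from each other, mostly in one direction. Of the 37 genes detected on all 4 of these arrays, 24 were lower on number 2 in both groups (64.9%, against 42.3% of all symbols detected on these arrays). At least 2-fold lower in both were 8 (21.6%, against 1.27% of the same symbols), and at least 2-fold higher were 0 (against 5.31%). The 8 were AHSG (9.22-fold by the mean of both groups), KNG1 (4.61-fold), SERPINC1 (3.81-fold), F7 (2.76-fold), ORM1 (2.67-fold), SERPIND1 (2.44-fold), C8A (2.44-fold) and SERPINF2 (2.31-fold). Of these, all but F7 and ORM1 were also in the lower class of arrays numbered 3. That class held 19 of the 37 genes (51.4%) and 11.5% of all symbols detected on these 4 arrays. The same overlap over all symbols is not given, so it cannot be called particular to these genes.

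Other genes of complement, coagulation and plasma proteins also fell on both sides. Of 66 such genes, 21 were detected on no array, 8 were in the lower class and 11 in the higher. The 8, outside the rule for named genes, were CPB2, SERPINA6, SERPINA10, SERPINF1, APOH, FGL1, HAMP and TFR2. CPB2, a carboxypeptidase that slows fibrinolysis, read 10.01, 10.23 and 5.32 in control and 9.88, 9.63 and 5.35 with sorafenib, at least 15.6-fold lower on arrays numbered 3, where it was not detected. APOH, a phospholipid-binding plasma protein, read 10.64, 10.85 and 8.41 in control and 11.37, 10.76 and 8.01 with sorafenib, 6.48-fold lower. The genes below were taken for their signal on arrays numbered 3, which favours those that were higher there. TFPI, the inhibitor of tissue factor, read 5.95, 5.15 and 12.42 in control and 5.66, 5.21 and 12.43 with sorafenib. It was detected only on arrays numbered 3, at least 90.6-fold higher. The vitamin D carrier GC read 8.88, 9.38 and 12.83 in control and 9.07, 8.84 and 12.42 with sorafenib. CD59, which blocks the lytic complex, read 7.40, 7.68 and 12.42 in control and 7.11, 7.19 and 10.83 with sorafenib. Both were detected on all 6 arrays and were higher on arrays numbered 3. Angiotensinogen (AGT), the precursor of the angiotensins, read 12.75, 12.20 and 13.39 in control and 12.86, 12.19 and 13.26 with sorafenib. SERPINA5, the protein C inhibitor, read 10.95, 11.28 and 12.43 in control and 11.59, 11.60 and 12.65 with sorafenib. Neither was in a class, and both were highest on arrays numbered 3. VKORC1, which recycles vitamin K for the clotting factors, read 12.27, 12.0041 and 13.05 in control and 11.95, 11.98 and 12.84 with sorafenib. The complement regulator CD46 read 11.83, 11.61 and 11.54 in control and 11.53, 10.88 and 11.15 with sorafenib. PLAU, urokinase, which activates plasminogen, read 6.90, 8.56 and 9.91 in control and 7.52, 9.73 and 10.50 with sorafenib. These last 3 were in neither class either.

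**Figure D3:**
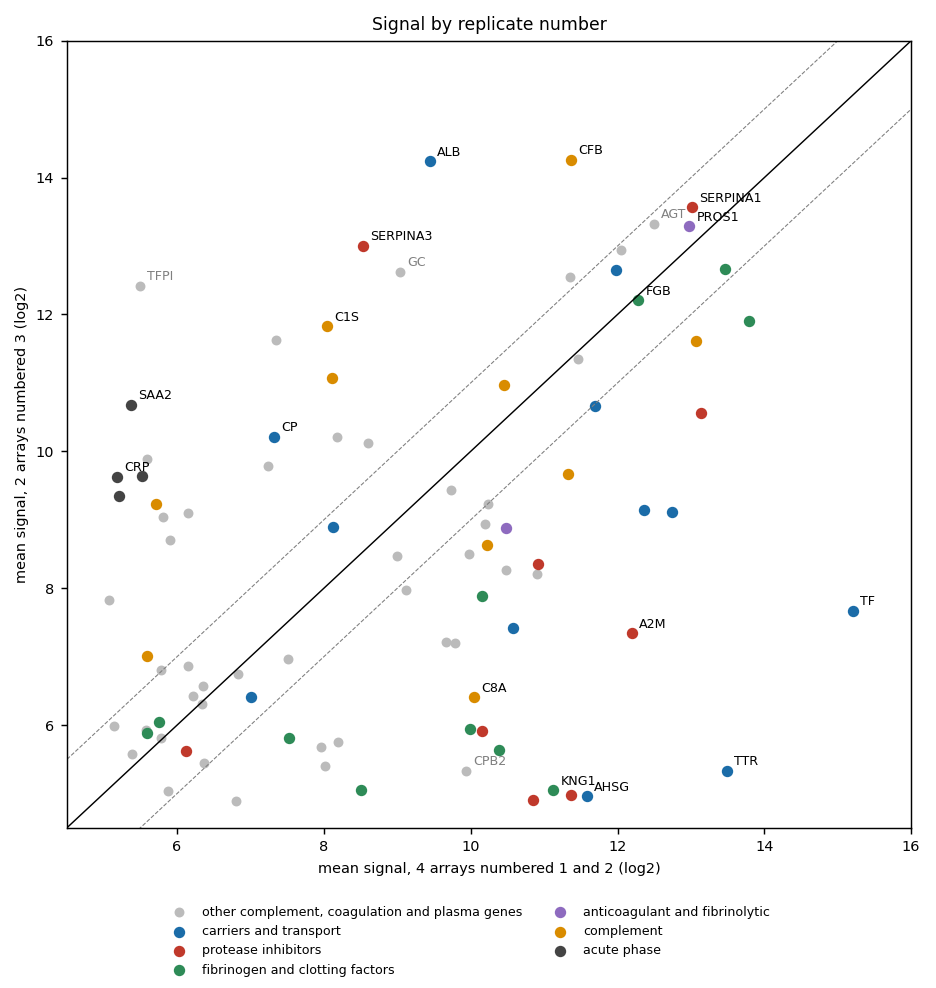
Mean log2 signal of each gene on the 4 arrays numbered 1 and 2 (horizontal) and on the 2 arrays numbered 3 (vertical); coloured points are the plasma protein genes detected on any array, by role, grey points are further genes of complement, coagulation and plasma. The solid line marks equal signal and the dashed lines 2-fold; ALB, SERPINA3 and CFB lie far above, TTR, AHSG and TF far below, and SERPINA1, PROS1 and FGB near the line.

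Regulators and markers also differed by replicate number. Of 12 hepatocyte transcription factors 3 were in the lower class: FOXA1 (12.60 by the mean of arrays 1 and 2, 9.53 on arrays 3), FOXA3 (11.16 and 7.16) and CEBPA (12.99 and 10.32). NR1H4, the bile acid receptor, was at 12.17 and 10.97 and FOXA2 at 12.29 and 11.77, both in neither class, though FOXA2 was called detected on no array. As a check of the labelled cell type, 6 secreted hepatocyte proteins outside the list, among them APOH, already given above, were detected on all 4 arrays numbered 1 and 2. All 6 were in the lower class, among them APOA2 (15.09 and 5.39), APOA1 (14.06 and 5.64) and APOB (13.48 and 8.62), and APOA1, APOA2 and APOC3 were not detected on arrays numbered 3. Of 13 genes of acute phase signalling, 4 were in the higher class (IL6ST, OSMR, IL1R1 and JAK1) and 0 in the lower.

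Of 14 fibroblast and stellate cell markers, 5 were detected on all 4 arrays numbered 1 and 2 and 9 on both numbered 3. Their summed signal was 12.04 to 12.48 (log2) on the former and 14.00 to 14.08 on the latter. FBLN1 was at 11.76 and 12.90, with neither array numbered 2 called detected, and ACTA2 at 6.95 and 11.80. DCN and DES were detected on none. Of 10 blood cell markers, 2 and 3 were detected, with summed signals of 10.64 to 11.07 and 14.17 to 14.61. RAC2 (5.27 and 14.27) was the 1 gene in the higher class, and PTPRC, CD53, CD48, CD37 and HCLS1 were detected on no array. LCP1 and ITGB2 were detected on all 6 arrays and were in neither class. By their means, both differed by less than 2-fold between arrays numbered 3 and the others. The higher blood sum on arrays numbered 3 thus rests mainly on RAC2. Of 10 endothelial markers 1 and 1 were detected, at sums of 9.19 to 10.05 and 8.67 to 8.82, and CDH5, KDR, TEK, CLDN5, EMCN, ERG, VWF and TIE1 on none. Of 8 biliary and epithelial markers 6 and 4 were detected, at sums of 14.21 to 14.53 and 14.65 to 14.71. In the lower class were 2 of them and in the higher 1. KRT19 and EPCAM, singled out after their values were seen, were detected only on arrays numbered 1 and 2. By treatment, the ranges of all these sums overlapped between control and sorafenib. The part of other cells in the differences between numbers was not tested.

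Within a replicate number, sorafenib arrays lay close to their controls. A pair below is the 2 arrays that share a number. Of the genes detected on both arrays, 32 of 40 (80%) in pair 1, 25 of 37 (67.6%) in pair 2 and 26 of 37 (70.3%) in pair 3 lay within 0.5 of the control, against 81.2%, 67.3% and 74.6% of all symbols. In the limma fit of the groups alone, 0 of the 42 tested plasma protein genes passed an adjusted p of 0.05, and 0% of all 14641 symbols did. With replicate number as a block it was again 0 of 42 and 0%. At an unadjusted p under 0.05 the groups alone gave 0 of 42 (2.12% of all symbols) and the block 8 of 42 (19%, against 19% of all symbols). A paired trended fit, which adds to the block a variance trend and robust estimation, called 0.963% of all symbols and 0 of the 42. In it 7 (16.7%) had an unadjusted p under 0.05, against 19.9%. The median difference over the 42, sorafenib minus control, was −0.02, with 0.03, −0.20 and −0.09 within numbers 1, 2 and 3, and −0.0004 over all symbols tested. Higher in all 3 pairs were 5 of 42 (11.9%, against 21.5% of all symbols) and lower in all 3 were 9 (21.4%, against 22.2%). The remaining 11 genes did not pass the filter of detection on at least 3 of 6 arrays and were not tested; they include CRP, SAA1 and SAA4, detected only on arrays numbered 3. The fit of the groups alone carried the differences between numbers as error: the SE of the TTR difference was 3.09 there.

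**Figure D4:**
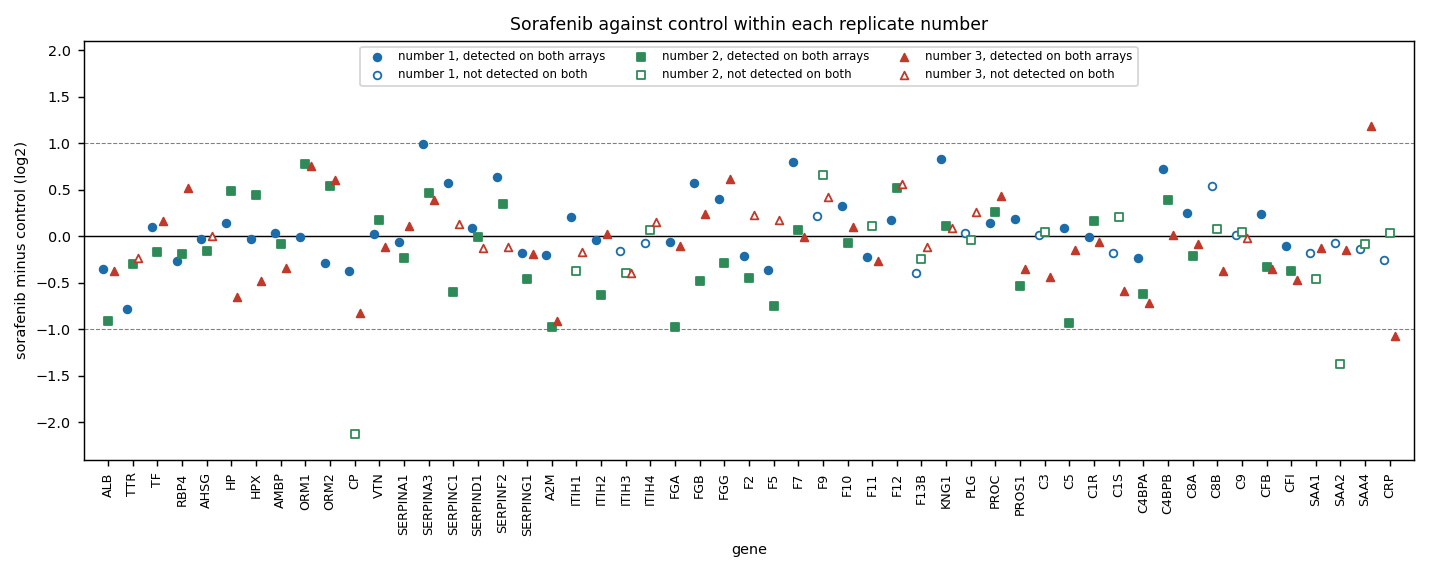
Sorafenib minus control (log2) within replicate numbers 1 (circles), 2 (squares) and 3 (triangles) for the 53 plasma protein genes; open symbols mark pairs in which 1 or both signals were not detected. Dashed lines mark 2-fold; of pairs detected on both arrays only SAA4 and CRP, both of number 3, lie beyond them.

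Differences of 2-fold or more within a number were rare. In pair 1, 0 of the 40 genes detected on both arrays were at least 2-fold higher or lower after sorafenib (1.53% and 1.43% of all symbols so detected). In pair 2 it was 0 of 37 either way (4.15% and 4.19%). In pair 3, SAA4 was 2.28-fold higher and CRP 2.11-fold lower after sorafenib, 1 of 37 each way (2.87% and 2.39%). Each comes from 1 pair with no replicate, and 1 of 37 is near the share over all symbols. CP was detected on control array 2 and not on sorafenib array 2, which makes it at least 3.34-fold lower there; it was singled out after its values were seen.

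The carriers that were lower in all 3 pairs were ALB, TTR and CP. Albumin differed by −0.35, −0.91 and −0.38 in pairs 1, 2 and 3, a mean of −0.55 ± 0.31 (SD, n = 3 pairs), with an adjusted p of 0.199 in limma with the block and 0.132 in the paired trended fit. TTR differed by −0.78, −0.29 and −0.24, with the last pair not detected. CP differed by −0.37, −2.12 and −0.82, a mean of −1.10 ± 0.91 (adjusted p = 0.171 and 0.116 in the same limma fits). The second of these and the mean rest on sorafenib array 2, where CP was not detected, so they are not measured sizes. The control and sorafenib groups overlapped in all 3. ORM1 differed by −0.00, 0.78 and 0.76 and ORM2 by −0.29, 0.54 and 0.61, higher in pairs 2 and 3 only. TF (0.10, −0.17 and 0.16), VTN (0.03, 0.18 and −0.12) and AHSG (−0.03, −0.16 and 0.00) stayed within 0.20 of their control in every pair, though AHSG was detected on neither array of pair 3.

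Among inhibitors, A2M differed by −0.20, −0.97 and −0.91, a mean of −0.69 ± 0.43, with the lowest adjusted p of the 42 genes in both limma fits (0.170 with the block and 0.112 trended). SERPINA3 differed by 0.99, 0.46 and 0.39, a mean of 0.62 ± 0.33, higher in all 3 pairs (adjusted p = 0.173 and 0.127 in the same limma fits). SERPING1 was lower in all 3 pairs, at −0.18, −0.46 and −0.19. SERPINC1 went both ways, at 0.57, −0.60 and 0.14, and SERPINF2 was at 0.63, 0.34 and −0.11. Neither was detected in pair 3.

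Fibrinogen had no common direction. FGA differed by −0.07, −0.98 and −0.10, FGB by 0.57, −0.48 and 0.23 and FGG by 0.39, −0.29 and 0.61, so that in pair 2 all 3 chains were lower and in pair 1 only FGA was. F12 (0.17, 0.52 and 0.56), KNG1 (0.83, 0.11 and 0.09) and PROC (0.14, 0.26 and 0.44) were higher in all 3 pairs, although F12 and KNG1 were near background in the last. F5, not detected in pair 3, differed by −0.37, −0.75 and 0.17 and F7 by 0.79, 0.06 and −0.01. PROS1 differed by 0.19, −0.53 and −0.35. The SD over pairs exceeded the size of the mean difference for FGA, FGB, FGG, F5, F7, KNG1 and PROS1.

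In complement, C4BPA and C4BPB lay on opposite sides of their controls. C4BPA differed by −0.24, −0.62 and −0.72, a mean of −0.52 ± 0.26 (adjusted p = 0.195 with the block and 0.137 trended, in limma), and C4BPB by 0.72, 0.39 and 0.02, a mean of 0.37 ± 0.35 (0.339 and 0.321). CFI was lower in all pairs, at −0.11, −0.37 and −0.47. CFB differed by 0.24, −0.33 and −0.35, C5 by 0.09, −0.93 and −0.15 and C8A by 0.25, −0.21 and −0.08. On arrays numbered 3, where C3 and C1S were detected, they differed by −0.44 and −0.59. SAA1 differed there by −0.13 and SAA2 by −0.15.

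Without both arrays numbered 3, which leaves 2 pairs and 1 residual degree of freedom a gene, the paired trended fit, added after the values were seen, called 10.8% of 13135 symbols and 3 of the 39 plasma protein genes tested (7.69%). The 3 were TTR, CP and A2M. By the paired trended fit in limma, TTR was at −0.54 (SE 0.13, 1.45-fold lower, adjusted p = 0.00375). In the same limma fit CP was at −1.25 (SE 0.34, 2.37-fold lower, adjusted p = 0.0170). By that limma fit A2M was at −0.59 (SE 0.18, 1.50-fold lower, adjusted p = 0.0257). The CP value rests in part on sorafenib array 2, where CP was not detected. The plain block fit on the same 4 arrays called 2.28% of symbols and 0 of the 39. Without numbers 1 or 2 the paired trended fit called 0 of 32 and 0 of 33 (0.359% and 0.00807% of symbols). Of the 66 other genes of the pathway, 35 were tested and 0 passed in the group, block or paired trended fit; their median difference was 0.08.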

How the data were processed

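The authors deposited non-normalized signal intensities and, per the file headers, a detection p-value beside each, in 1 table per group with 1 row per symbol; how probes were combined is not given in the sources used here. A further deposited table of log2 values was not used here, because only 59 symbols had values in its sorafenib columns. Both intensity tables were joined by symbol. Background was corrected by the neqc method of limma 3.58.1 in R 4.3.3 (offset 16), estimated from the 27247 symbols whose detection p-values were whole multiples of 1/770 on all arrays (tolerance 0.001), then arrays were quantile-normalized and brought to log2. Symbols detected (p under 0.05) on at least 3 of 6 arrays were tested with limma (lmFit, eBayes, two-sided), with Benjamini-Hochberg adjustment over all 14641 tested. The planned fit held the group alone. Deviations from the group means correlated at 0.904, 0.791 and 0.926 between arrays of the same number. Because arrays numbered 3 stood apart, such deviations may also correlate between different numbers. That correlation is not given, so these values cannot decide which arrays belong together. In levels, arrays of the same number correlated at 0.984, 0.966 and 0.978. Arrays numbered 1 and 2 correlated at 0.932 to 0.959 over all symbols tested. The numbers were taken as pairs as an assumption, and fits with the replicate number as a block are given beside the planned fit. Arrays carry no scan date or slide here. The number of arrays limits the precision.

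The rule for named genes took the genes with a 2-fold difference within a number, the 10 brightest on arrays numbered 1 and 2, and those detected on both arrays numbered 3; others are named to account for every gene. Of the other pathway genes it took those detected on both arrays numbered 3 at 10 or above, highest first, at most 10; 2 of these are not reported here. The genes, lists and fits were chosen with earlier results of these data known. The fits were also run on simulated data in which the replicate numbers were built in as pairs, so that run cannot test the pairing. It kept every array, so the fits without a number were not covered.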

Additional observations from a re-analysis of the deposited data

How the results depend on the processing

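The count of plasma protein genes called was 0 under 10 alternatives with all 6 arrays (median scaling, no background correction, offset 50, background from all symbols, no detection filter, detection on all 6 arrays, replicate block, trend and robust estimation, both together, array weights) and without each single array. The planned block fit without a pair also called 0. The count was 3 in the paired trended fit without both arrays numbered 3. Over all genes, 0 were called in the group fit and 141 with the replicate block, trend and robust estimation; that fit called 43, 1 and 1422 genes without replicate 1, 2 and 3, and the plain block 299 without replicate 3. The median difference of the plasma protein genes ranged from −0.75 to 0.57 without 1 array, since the partner then stays unmatched. Of 406 single-gene differences under settings with all arrays, 11 moved by more than the SD over pairs, 24 turned sign and 0 passed. Without an array, or without a pair in the block fit, 151 of 347 moved, 107 turned sign and 0 passed. The lower and higher classes of arrays numbered 3 held 19 and 11 genes with median scaling or offset 50 and 18 and 11 without background correction. They held 9 and 6 when all symbols served to estimate the background, a setting chosen for the classes after seeing the data; 8 and 6 of these were shared, and 0 genes turned direction. With a detection p under 0.01, 33 genes were detected on all 4 arrays numbered 1 and 2 and 31 on both numbered 3, against 37 and 37. Signals near background give no order between genes or groups. With all symbols for the background, the paired trended fit called 0 genes. The cause of these shifts was not tested.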
